A study of Mus musculus with 4 samples.

Results

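The comparison described here set a Pld6 knockout (KO) against a Pld6 wild-type (WT) library of polyA(+) RNA from leptotene/zygotene (L/Z) spermatocytes, which are male germ cells early in meiotic prophase. It used 2 of the 4 libraries of the series, chosen by the genotype in their labels, with 1 library per genotype. Both came from F1 hybrid mice of the strains C57BL6/J and MSM/Ms at 3 to 4 weeks of age, and the cells were collected by FACS, a sorting of living cells by fluorescence. Mutants were obtained by crossing heterozygotes that had been bred repeatedly to MSM/Ms with heterozygotes of C57BL/6J. The number of animals behind each library is not given in the sources used here. The other 2 libraries, a Dnmt3L heterozygote and a Dnmt3L KO of the same hybrid background and stage, are given as values beside the comparison. Dnmt3L is a cofactor of the enzymes that place DNA methylation in the male germ line. With 1 library a side there is no replicate check and no test, and every difference below is one between these libraries.

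Pld6, also called MitoPLD or Zucchini, is a protein of the mitochondrial outer membrane. It is needed to make PIWI-interacting RNAs (piRNAs), small RNAs that lead PIWI proteins to the transcripts of retrotransposons and, in fetal male germ cells, guide DNA methylation to retrotransposon promoters. Male mice that lack this pathway are infertile, and their germ cells are lost during meiotic prophase. Retrotransposons that escape silencing can act as promoters of nearby genes.

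The fragments counted in genes were 30439943 for Pld6 KO and 40541149 for Pld6 WT, and an FPKM (fragments per kilobase of gene, scaled to library size) of 1 was reached by 13320 and 13613 genes. A count of 0 allows up to 3 fragments, for counting error only, and folds against a gene at 0 are lower bounds set against 3 fragments in that library. Changes are given as log2((FPKM in Pld6 KO + 1)/(FPKM in Pld6 WT + 1)), which understates the change of weakly expressed genes. Where a pair of values has no other label, the first is Pld6 KO and the second Pld6 WT. Folds of fragments are scaled to the fragments in genes and carry an exact (Clopper-Pearson) 95% interval, which covers counting error only.

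Pld6 (chr11:59783893-59787657, mm10) was listed at 19.5 FPKM in Pld6 WT (1197 fragments) and at 0.334 FPKM in Pld6 KO (14 fragments). Among the Dnmt3L libraries it stood at 17.2 FPKM in the heterozygote and 8.55 in the KO. The library labelled Pld6 KO was thus the lowest of the 4, at 1.72% of the Pld6 WT level. Its fragments were 64.2-fold lower (38.1 to 118), a log2 change of -3.94. The 6 genes within 100 kb of Pld6, singled out after their values were seen, lay between -0.90 for Nt5m, a mitochondrial nucleotidase, and 0.41 for Flcn, the folliculin gene, and the predicted gene Gm16062. Between the Dnmt3L KO and its heterozygote, Nt5m, Flcn and Gm16062 were at -0.94, 0.45 and 0.27.

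Across 23980 genes, 1124 (4.69%) were over 2-fold higher and 1548 (6.46%) over 2-fold lower in Pld6 KO. The lower side held the larger changes, with 390 genes over 8-fold lower against 25 over 8-fold higher. Short RNA genes, such as snoRNAs and miRNAs that polyA(+) libraries catch poorly, made up 97 of the former and 19 of the latter. Among the 13946 genes with a mean FPKM of at least 1 over both libraries, 7.78% were higher and 9.76% lower. Their median change was 0.01, with quartiles at -0.35 and 0.41. By level in Pld6 WT, the share of lower genes was 15.1% at 1 to 10 FPKM, 8.60% at 10 to 100 FPKM and 7.88% above 100 FPKM. The shares of higher genes in these classes were 11.1%, 2.2% and 2.35%. Below 1 FPKM no gene can be called lower on this scale. Pld6 WT is also the denominator of the ratio, so its counting error and the pseudocount shape these shares.

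**Figure D1:**
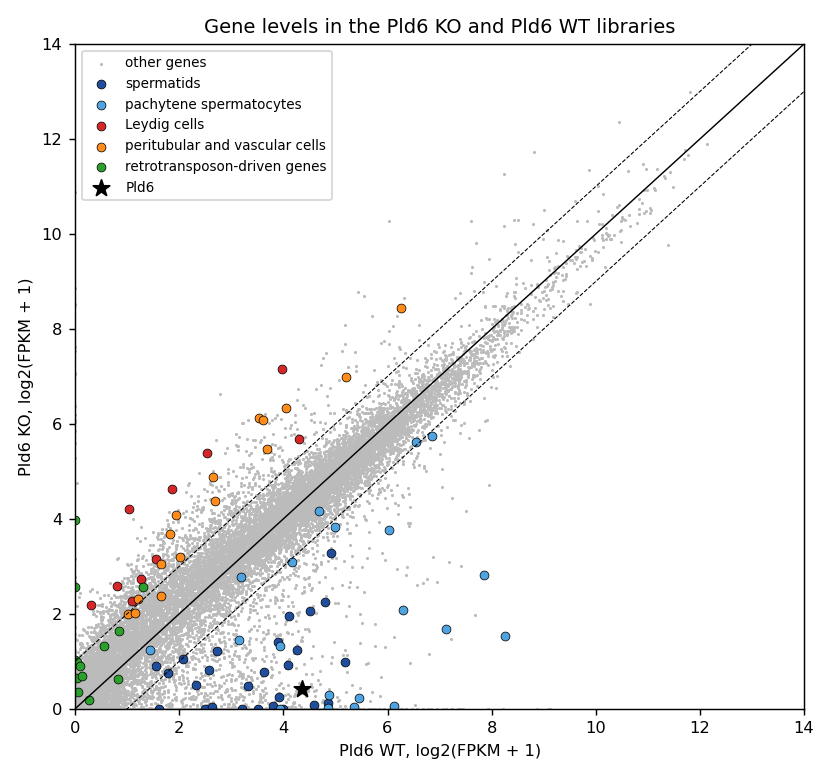
Level of each gene in Pld6 WT (x axis) and Pld6 KO (y axis) as log2(FPKM + 1), with the diagonal and the 2-fold limits as solid and dashed lines and members of marker lists in colour. Spermatid and pachytene markers sit below the diagonal, Leydig and peritubular or vascular markers above it, and Pld6 is at 19.5 FPKM on the x axis and 0.334 FPKM on the y axis.

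The Dnmt3L pair, which shares no library with this one, was read by the same rule. There, 719 genes (3.00%) were over 2-fold higher in the mutant and 1970 (8.22%) over 2-fold lower. The lower sides shared 1216 genes, which is 78.6% of the Pld6 list and 61.7% of the Dnmt3L list. The higher sides shared 120 genes, 10.7% and 16.7% of the respective lists. For scale, 8.22% of all genes were lower in the Dnmt3L pair and 6.46% in the Pld6 pair, and 3.00% and 4.69% were higher. The overlap was thus larger for genes that were low in the mutants than for genes that were high. On both sides it was above the share over all genes.

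The study named 13 genes that rose over 3-fold in Pld6 KO spermatocytes of C57BL/6J mice and lay with an activated retrotransposon copy. It read them as retrotransposon-driven, from libraries other than these. Some driving copies are missing from the MSM/Ms genome, which is why the study made the hybrids. In the genes it analysed there, the activated alleles came almost wholly from C57BL/6J. The threshold here was instead 2-fold in FPKM + 1. In the hybrid libraries 11 of the 13 were above and 2 below their Pld6 WT level. Over 2-fold higher were 4, or 30.8%, beside 4.69% of all genes, and 0 were over 2-fold lower. The median log2 change was 0.79, beside 0 over all genes, and 1.83 with a pseudocount of 0.1 FPKM. The list summed to 33.3 FPKM in Pld6 KO and 3.97 FPKM in Pld6 WT, beside 13.4 and 4.34 FPKM for the Dnmt3L KO and its heterozygote.

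Reg2 (chr6:78405155-78408099), a secreted lectin-like protein of the regenerating islet family, held 14.8 FPKM in Pld6 KO (230 fragments), 0 fragments in both controls, and 3.83 FPKM (89 fragments) in the other mutant, the Dnmt3L KO. Its fold between the Pld6 libraries was at least 102. Gc (chr5:89417511-89457898), the vitamin D binding protein that liver secretes into blood, held 253 fragments in Pld6 KO (4.96 FPKM), 0 in Pld6 WT and the Dnmt3L heterozygote, and 170 in the Dnmt3L KO, a fold of at least 112. Reg2 and Gc were thus present in both mutants and at 0 in both controls. Il23r (chr6:67422932-67491855), a receptor subunit for interleukin 23, had 75 fragments in Pld6 KO (1.03 FPKM) and 0 elsewhere, a fold of at least 33.3. Unlike Reg2 and Gc, it was detected in the Pld6 mutant and in no other of the 4 libraries. Nckap1l, a regulator of actin in blood cells, was the remaining member over 2-fold higher, with 4.92 FPKM against 1.48 (3.43-fold in fragments, 2.98 to 3.96), and with 2.30 against 1.63 FPKM in the Dnmt3L pair.

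Robo2 (chr16:73891976-75447443), a Slit receptor that guides axons, gave 242 fragments in Pld6 KO and 10 in Pld6 WT, 32.2-fold higher (17.2 to 68.1), although its log2 change was 0.94 because both levels lay under 1 FPKM. Pamr1, a secreted peptidase-domain protein, gave 73 and 7 fragments, 13.9-fold higher (6.41 to 35.8). Tmc2, a transmembrane channel-like protein of hair cells, gave 54 and 3 fragments, 24-fold higher (7.78 to 120). These members passed the fold only in fragments, since a pseudocount of 1 FPKM hides a change at such levels. Sntb1, a syntrophin of the dystrophin complex, was 6.33-fold higher in fragments (2.91 to 15.7), and Afm, the plasma protein afamin, 7.10-fold (2.03 to 38). Alox5, the enzyme that starts leukotriene synthesis, was 3.24-fold higher (2.32 to 4.58), and Sncaip, which encodes synphilin-1, 2.74-fold (2.17 to 3.48). Sncaip was lower in the Dnmt3L KO (0.431 FPKM) than in the Dnmt3L heterozygote (0.953 FPKM). The 2 members below Pld6 WT were Caps2, with 44 against 79 fragments, and Cd300c, with 2 against 4, and the intervals of both ratios included no difference. A figure legend of the study names Caps2 as driven by a copy inside an intron, and counts over a whole gene do not separate its exons.

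**Figure D2:**
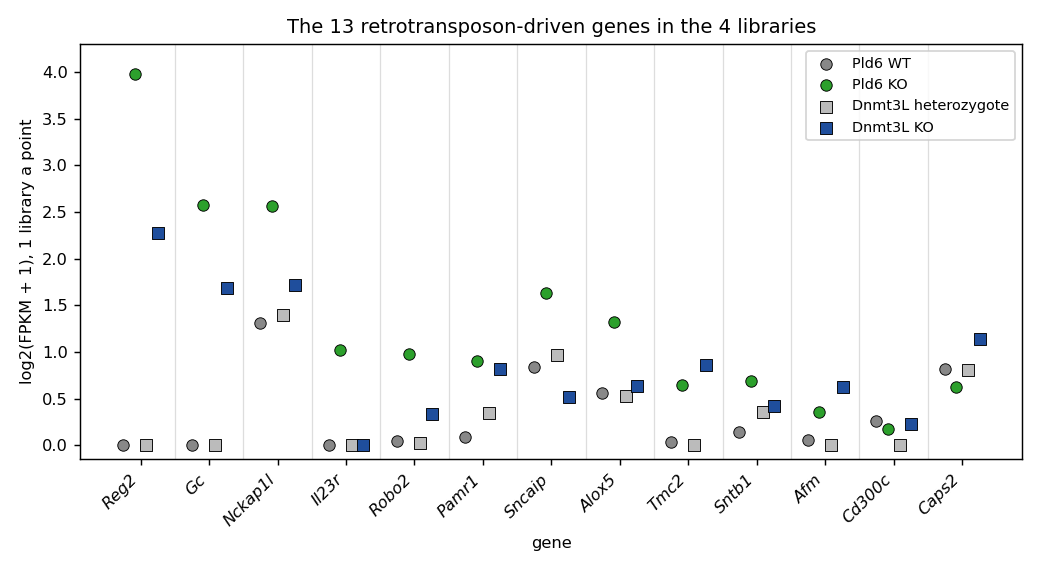
Levels of the 13 retrotransposon-driven genes as log2(FPKM + 1) in the 4 libraries, 1 point per library, ordered by the change between Pld6 KO and Pld6 WT. The Pld6 KO point is above the Pld6 WT point for 11 genes, and Reg2 and Gc are at 0 in both controls.

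Nckap1l, Alox5, Il23r and Cd300c are also genes of white blood cells. Of 12 macrophage markers 4 (33.3%, beside 4.69% of all genes) were over 2-fold higher and 11 above Pld6 WT, with a summed level of 63.8 FPKM in Pld6 KO and 25.3 FPKM in Pld6 WT. Of 12 lymphocyte markers 1 (8.33%) was over 2-fold higher, 6 were above and 6 below, and the sums were 16.6 and 9.998 FPKM. Their part in the values of those genes was not tested.

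Neighbours were read to see whether genes around the 13 differed as well. Within 100 kb lay 49 genes, of which 1 was over 2-fold higher (2.04%, beside 4.69% of all genes) and 5 over 2-fold lower (10.2%, beside 6.46%), with a median of 0.00. The higher one was Itga5, an integrin near Nckap1l (log2 change 1.23). The lower ones, named after their values were seen, were Gykl1, a testis glycerol kinase near Sncaip (29.0 FPKM in Pld6 WT, 0.0184 FPKM in Pld6 KO), Glipr1l1 and Glipr1l2 near Caps2, Gtsf1 near Nckap1l, and the snoRNA gene Snord57, which rests on 8 fragments against 0. Gtsf1 encodes a partner of PIWI proteins and stood at 167 FPKM in Pld6 WT and 55.3 FPKM in Pld6 KO, and at 180 FPKM and 50.4 FPKM in the Dnmt3L heterozygote and KO. Of the 19 neighbours with a mean FPKM of at least 1, 14 were lower and 5 higher, with a median of -0.26, and 26.3% were over 2-fold lower, beside 9.76% of all genes at that level. Of the family members within 100 kb of Reg2, Reg1, Reg3a, Reg3d and Reg3g had 0 fragments in both Pld6 libraries and Reg3b had 0 in Pld6 KO and 1 in Pld6 WT. In the Dnmt3L KO and heterozygote Reg3b had 118 and 27.

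A further 26 genes stand on the study's list of retrotransposon-driven genes for Dnmt3l KO and not on that for Pld6 KO, although the study describes some of them in both mutants. In the Pld6 pair 5 of them (19.2%, beside 4.69% of all genes) were over 2-fold higher. Over 2-fold lower were 3 (11.5%, beside 6.46% of all genes), and the median was 0.22. Among all genes with a mean FPKM of at least 1, 7.78% were higher and 9.76% lower. The noncoding RNA 2310043L19Rik had 31 fragments against 0, a fold of at least 13.8, and 15 against 0 in the Dnmt3L pair. Tecrl, a reductase-like protein of heart muscle named after its value was seen, had 76 fragments against 4, 25.3-fold higher (9.49 to 95.3), and 122 against 49 in the Dnmt3L pair. Plac8l1 went the opposite way, with 148 fragments in Pld6 WT and none in Pld6 KO. The Dnmt3L pair was alike for it, with 472 fragments in the heterozygote and 0 in the KO. Fmr1, the RNA-binding protein lost in fragile X syndrome and the most abundant of the list, was at 105 and 139 FPKM, and Eps8l1, an adaptor of receptor signalling, at 0.503 and 0.309 FPKM. The list therefore held members on both sides.

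Most genes of the piRNA pathway other than Pld6 were within 2-fold of their Pld6 WT level. Of 22 genes 0 were over 2-fold higher and 3 over 2-fold lower (13.6%, beside 6.46% of all genes and 9.76% of those with a mean FPKM of at least 1), the median was -0.34 and 19 were below Pld6 WT. The lower 3 were Tdrd6, Piwil1 and Mael. Gtsf1, given above as a neighbour of Nckap1l, was not on this list and was also over 2-fold lower (log2 change -1.58). Tdrd6, a tudor protein of the chromatoid body, held 15.6 FPKM in Pld6 WT and 0.101 in Pld6 KO, 148-fold lower in fragments (97.9 to 237). The Dnmt3L pair was alike, with 0.117 FPKM in the KO. Piwil1, the PIWI protein that binds the piRNAs of pachytene cells, held 18.7 FPKM in Pld6 WT and 3.13 in Pld6 KO, and Mael, a nuage protein, held 182 and 369 FPKM. Tdrd6 and Piwil1 are known for expression from the pachytene stage on.

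The fetal and early meiotic PIWI genes were within 2-fold. Piwil4, which guides DNA methylation in fetal germ cells, held 6.02 FPKM in Pld6 KO and 4.11 in Pld6 WT. Piwil2, which also acts before pachytene, was at 74.5 and 84.9 FPKM, and Gpat2, a mitochondrial partner of Piwil2, at 78.5 and 102 FPKM. Against the Dnmt3L heterozygote as the control the pathway's median was 0.27, so its direction depended on the control.

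Genes of the PLD family and of mitochondrial phosphatidic acid, the lipid tied to Pld6 at the outer membrane, gave no difference over 2-fold in FPKM + 1. Of 19 genes 10 were above and 9 below Pld6 WT, with a median of 0.13. Pld4, a single-strand nuclease, was at 2.68 and 1.12 FPKM, which in fragments is 2.48-fold higher (1.88 to 3.29), and Ptpmt1, a phosphatase of cardiolipin synthesis, differed by -0.65 on the log2 scale. Opa1, which fuses inner membranes, differed by 0.13, and Fis1, a fission adaptor, was at 120 and 142 FPKM. Genes of chromatin silencing of retrotransposons also gave 0 calls in either direction among 23 on that scale, with a median of 0.08. The furthest apart were Tet3, a 5-methylcytosine oxidase, at 17.5 and 9.73 FPKM, and Cbx1, a heterochromatin protein, at 44.9 and 69.2 FPKM. Trim28, the corepressor of zinc finger proteins, was at 208 and 186 FPKM. Dnmt3a, a de novo DNA methyltransferase, was at 14.2 and 13.3 FPKM.

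Genes of leptotene and zygotene were expressed in both libraries, the stage at which the labels say the cells were sorted. Of 35 genes 34 were below their Pld6 WT level, 9 by over 2-fold (25.7%, beside 6.46% of all genes and 9.76% of those with a mean FPKM of at least 1), and 0 were over 2-fold higher, with a median of -0.70. Sycp3, the axial element of the synaptonemal complex and the most abundant of the list, held 431 FPKM in Pld6 KO and 782 in Pld6 WT. Dmc1, the meiotic recombinase, was at 99.6 and 162 FPKM. Hfm1, a helicase of crossover formation, was the furthest apart, with 23.9 and 83.1 FPKM, and its fragments were 3.18-fold lower (3.07 to 3.30). Spo11, which makes the meiotic breaks, was at 21.6 and 50.9 FPKM (named after its value was seen). Rec8, a meiotic cohesin, was the exception, with a log2 change of 0.31. In the Dnmt3L heterozygote Sycp3 held 559 FPKM, above its level in Pld6 KO. With that library as the control the list's median was 0.14, with 21 of the 35 genes higher in Pld6 KO, while Sycp3 and Hfm1 were still lower, at -0.37 and -0.32.

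Genes that come on in pachytene spermatocytes were far lower in Pld6 KO. All 20 were below Pld6 WT, 16 by over 2-fold (80.0%, beside 6.46% of all genes), with a median of -3.27. Their summed level was 1349 FPKM in Pld6 WT and 175 FPKM in Pld6 KO, beside 2549 and 185 FPKM for the Dnmt3L heterozygote and KO. Ldhc (chr7:46861263-46878147), the lactate dehydrogenase of germ cells, was the lowest of all genes named by rule against its Pld6 WT level, with 304 FPKM (13725 fragments) in Pld6 WT and 1.91 FPKM (67 fragments) in Pld6 KO, 154-fold lower (121 to 199). Acr, the acrosomal protease, had 740 fragments in Pld6 WT and none in Pld6 KO, a fold of at least 185. Hist1h1t, a testis linker histone, was close to even at 1.36 and 1.71 FPKM, and low in both.

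Spermatid genes were likewise lower, and 25 of 26 were so by over 2-fold (96.2%, beside 6.46% of all genes). Their median was -2.57. Tnp1, a transition protein that replaces histones, was the most abundant of the list in Pld6 WT, at 35.5 FPKM against 0.987 FPKM in Pld6 KO, and Smcp, a capsule protein of sperm mitochondria, was at 0.0918 and 28.1 FPKM. Tnp1 levels in the Dnmt3L heterozygote and KO were 2007 and 7.83 FPKM. Catsper4, a sperm calcium channel, was at 0.0241 and 5.21 FPKM, and Tssk6, a spermatid kinase, at 0.859 and 1.94 FPKM, the member that did not pass 2-fold. The list summed to 344 FPKM in Pld6 WT but to 7908 FPKM in the Dnmt3L heterozygote, so the controls themselves differed in these transcripts, while Pld6 KO (30.1 FPKM) and Dnmt3L KO (46.0 FPKM) were both low. By FACS, the study found spermatogonia and spermatocytes up to zygotene, and no later germ cells, in testes of both mutants. Its WT testes held later stages too. The part of this difference in the values of these sorted libraries was not tested. In bulk RNA of sorted cells, fewer cells of a type and less RNA per cell cannot be told apart.

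**Figure D3:**
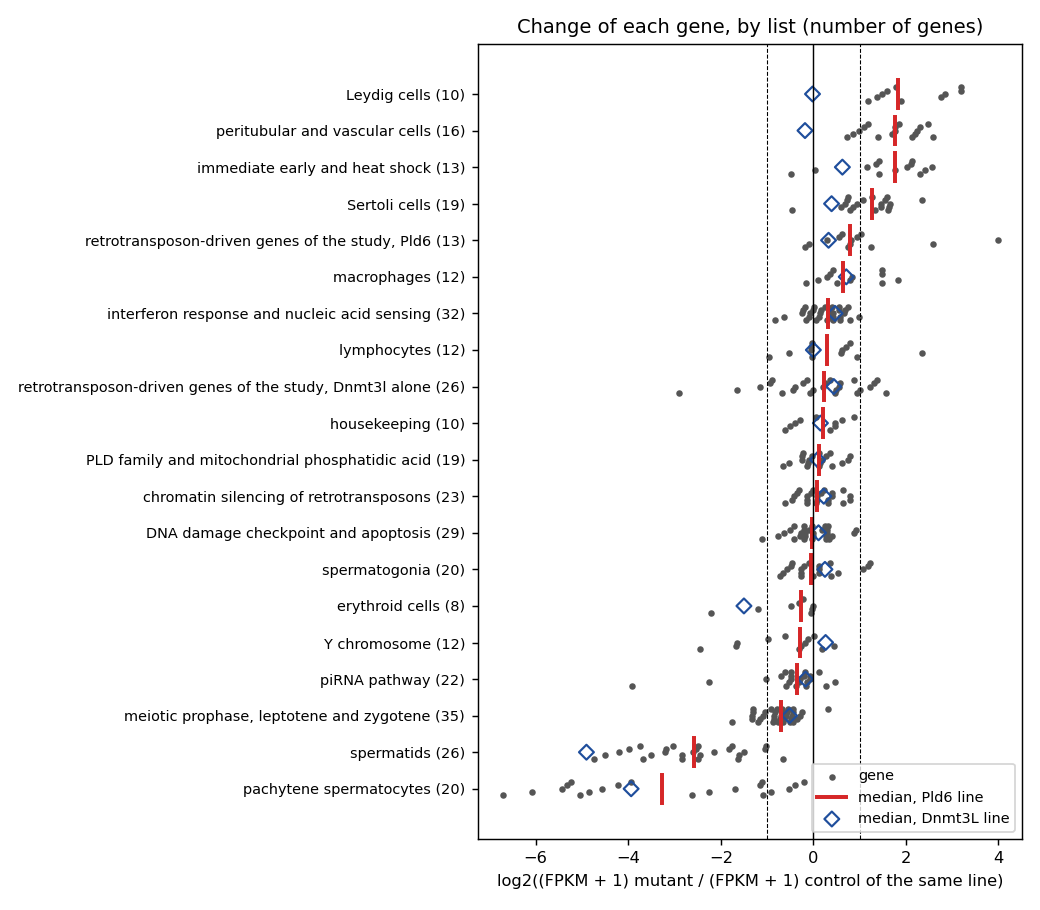
Change of each gene (points) by list, as log2 of the FPKM + 1 ratio of Pld6 KO to Pld6 WT, with the list's median (red bar) and its median in the Dnmt3L pair (open diamond). Dashed lines mark 2-fold. Pachytene and spermatid lists lie furthest to the left and Leydig, peritubular and vascular, and immediate early lists furthest to the right.

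The 12 genes furthest below their Pld6 WT level, among those with at least 100 fragments, were Ldhc, Hspb9, Hrasls5, Cmtm2a, 4922502D21Rik, Cmtm2b, Rbakdn, Fabp9, Gm20878, Spata4, 1700011E24Rik and Ldhal6b, at -6.71 to -5.59. Hspb9, a testis small heat shock protein, had 1950 fragments in Pld6 WT and 1 in Pld6 KO, which is 1464-fold lower with an interval of 262 to 57860. Hrasls5, a phospholipid acyltransferase, had 2582 fragments in Pld6 WT and none in Pld6 KO, a fold of at least 646. Cmtm2a and Cmtm2b, chemokine-like membrane proteins encoded side by side (chr8:104281042-104293181 and chr8:104322206-104330764), had 2482 and 1569 fragments in Pld6 WT and 1 and 0 in Pld6 KO. Fabp9, a fatty acid binding protein of the sperm head, was at 2.91 and 205 FPKM, and the noncoding RNA Rbakdn at 1.79 and 149 FPKM. All 12 were also over 2-fold lower in Dnmt3L KO than in the Dnmt3L heterozygote, at -8.10 to -4.41.

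Sequence upstream of the gene start was read for genes with a RefSeq promoter (17805 genes, GRCm38.p6, the 250 bases before any annotated start, both strands). 3 motifs linked to late germ cell transcription were searched by their letters. TAACNG is bound by MYB proteins, of which A-MYB acts in pachytene cells. GTTGCCAT is an arm of the X-box bound by RFX factors, and TGACGTCA is the cAMP response element bound by CREM in spermatids. Its core TGACGT was counted on its own and is contained in it. TAACNG was found upstream of 27.7% of the genes over 2-fold lower, 17% of those over 2-fold higher, 20.7% of all and 19.8% of those with a mean FPKM of at least 1. GTTGCCAT was found upstream of 3.94%, 0.519%, 1.22% and 1.30%. TGACGTCA was found upstream of 2.69%, 1.30%, 2.26% and 3.07%, and TGACGT upstream of 7.43%, 5.84%, 8.64% and 11.1%. Lower genes thus held the first pair of motifs more often than higher genes did, while for TGACGTCA and TGACGT both sides lay below the share of expressed genes. In the spermatid list 8.70% of 23 genes held TAACNG and in the pachytene list 28.6% of 14, beside 20.7% of all genes. GTTGCCAT was upstream of 0 of the 23 and 1 of the 14, and TGACGTCA upstream of 1 and 0. The lists thus did not both show the excess of the lower genes, and a match is a description of letters only. Windows are shown for the lactate dehydrogenase genes among those 12 and for Izumo1, the sperm-egg fusion protein, which alone in the spermatid list held TGACGTCA and was at 5.57 FPKM in Pld6 WT and 1.32 FPKM in Pld6 KO. Capitals mark TAACNG or its reverse complement in Ldhc (chr7:46861169-46861262, plus strand) and Ldhal6b (chr17:5418768-5418842, minus strand), and TGACGTCA in Izumo1 (chr7:45621655-45621782, plus strand).
Ldhc: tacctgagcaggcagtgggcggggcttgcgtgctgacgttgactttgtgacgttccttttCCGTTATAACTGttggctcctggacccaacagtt
Ldhal6b: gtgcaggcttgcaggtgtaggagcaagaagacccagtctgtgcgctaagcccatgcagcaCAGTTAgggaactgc
Izumo1: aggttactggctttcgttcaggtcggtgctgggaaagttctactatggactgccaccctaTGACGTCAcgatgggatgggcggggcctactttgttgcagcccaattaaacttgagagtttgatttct
Ldhc held 2 matches that lie back to back, the first beginning 34 bases before the gene start, and Ldhal6b held 1, beginning 15 bases before it.

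Spermatogonial genes were spread around their Pld6 WT level, with a median of -0.05 over 20 genes. The 3 over 2-fold higher (15%, beside 4.69% of all genes) were Gfra1, Ret and Kit (the latter pair named after their values were seen). Gfra1, the receptor for GDNF on stem cells, was at 12.8 and 4.89 FPKM, its coreceptor Ret at 18.3 and 7.5 FPKM, and Kit, the receptor of differentiating spermatogonia, at 86.4 and 40.4 FPKM. Uchl1, a ubiquitin hydrolase and the most abundant of the list, was at 468 and 474 FPKM. Sohlh1, a factor of differentiation, was at 86.4 and 92.0 FPKM, and Upp1, a uridine phosphorylase, at 3.65 and 6.68 FPKM.

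Markers of the somatic cells of the testis were higher in Pld6 KO than in Pld6 WT. All 10 Leydig cell markers (100%) were over 2-fold higher, beside 4.69% of all genes. Their median was 1.83, with a summed level of 300.3 against 47.4 FPKM. Insl3, the Leydig hormone of testis descent, was at 142 and 14.7 FPKM, 10.02-fold higher in fragments (8.73 to 11.6), and Hsd3b1, a steroid dehydrogenase, at 3.80 and 1.13 FPKM. Fabp3, a fatty acid binding protein, was at 50.1 and 18.7 FPKM and Hsd17b3, which completes testosterone synthesis, differed by 1.78 on the log2 scale. Of 16 peritubular and vascular markers 13 (81.25%, beside 4.69% of all genes) were over 2-fold higher. Their median was 1.77, with a summed level of 838 against 187 FPKM. Acta2, the smooth muscle actin, was at 349 and 75.2 FPKM, Col1a2 and Col1a1, which encode type I collagen, at 68.5 and 10.6 FPKM and at 43.0 and 11.9 FPKM, and the endothelial receptor Tie1 at 4.18 and 2.12 FPKM. No marker of these lists was at 0 in either library.

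Of 19 Sertoli cell markers 11 (57.9%, beside 4.69% of all genes) were over 2-fold higher, with a median of 1.27. Rhox8, a Sertoli homeobox gene, was at 16.7 and 2.47 FPKM, Cst12, a cystatin, at 167 and 68.7 FPKM and the protease Ctsl at 163 and 93.2 FPKM. Amh, the hormone of immature Sertoli cells, was the exception at 0.560 and 1.14 FPKM. The summed level was 941 FPKM in Pld6 KO and 402 in Pld6 WT, but 14702 and 11429 FPKM in the Dnmt3L KO and heterozygote. Pld6 WT held the least Leydig, peritubular and Sertoli marker RNA of the 4 libraries, and with the Dnmt3L heterozygote as the control the medians were -0.59 for Leydig, 0.64 for peritubular and vascular and -3.27 for Sertoli markers.

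Among blood cells, macrophage markers had a median of 0.65, with Lyz2, a lysozyme, at 12.6 and 2.82 FPKM, the complement gene C1qa at 10.4 and 5.61 FPKM, Emr1, the F4/80 antigen, at 0.912 and 0.339 FPKM, and Fcgr1, an antibody receptor, at 0.0661 and 0.195 FPKM. In the lymphocyte list (median 0.29) the B cell receptor component Cd79a stood out at 7.88 and 0.742 FPKM, while Gzmb, Cd4, Cd3g and Cd8a had 0 fragments in Pld6 KO. Cd3e, a T cell receptor component, was at 3.04 and 6.89 FPKM. Erythroid markers (8 genes) had 0 over 2-fold higher, 2 over 2-fold lower (25%, beside 6.46% of all genes) and a median of -0.27. Hbb-b1 was at 5.88 and 14.7 FPKM and Hba-a2 at 0 and 54 fragments, and globin genes share reads with near-identical copies. The erythroid median was thus below 0, while those of the other somatic lists were above 0. In the lymphocyte list, though, 6 genes were above and 6 below Pld6 WT. Alas2, a heme enzyme of red cells, was at 0.710 and 1.13 FPKM.

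**Figure D4:**
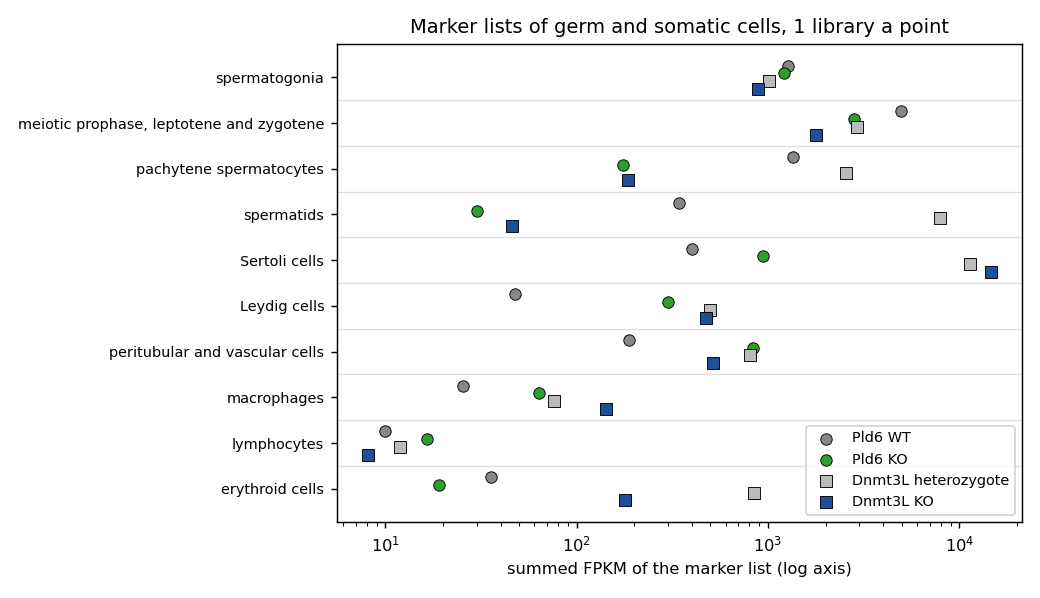
Summed FPKM of each cell type's marker list (log axis) in the 4 libraries, 1 point per library. Spermatid and pachytene sums are low in both mutants, Sertoli sums reach 11429 and 14702 FPKM in the Dnmt3L libraries against 402 and 941 FPKM in the Pld6 libraries, and Leydig sums are lowest in Pld6 WT.

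The 12 genes furthest above their Pld6 WT level, by the same minimum of fragments, were Gm5643, Reg2, Insl3, Hsd3b6, Akr1cl, Lect1, Cyp17a1, Cyr61, Bgn, Cyp11a1, Fxyd1 and Tcf21, at 4.71 to 2.59. Cyp11a1 and Cyp17a1, the first steps of steroid synthesis, were at 23.6 and 2.64 FPKM and at 41.0 and 4.82 FPKM. Hsd3b6, a Leydig steroid dehydrogenase, was at 17.6 and 1.04 FPKM. Insl3, Hsd3b6, Cyp17a1 and Cyp11a1 are members of the Leydig list. Bgn, a matrix proteoglycan, was at 63.7 and 8.39 FPKM, the matrix protein gene Cyr61 at 63.9 and 8.27 FPKM, and Tcf21, a factor of mesenchymal cells, at 30.4 and 4.22 FPKM. Only Reg2, Hsd3b6 and Lect1 of these 12 were also over 2-fold higher in Dnmt3L KO than in the Dnmt3L heterozygote. Gm5643, a pseudogene on the X chromosome, had 1255 fragments in Pld6 KO, 3357 in Dnmt3L KO, 4055 in the Dnmt3L heterozygote and 1 in Pld6 WT, so that Pld6 WT was the library that stood apart. With the Dnmt3L heterozygote as the control the direction turned for Gm5643 (-0.64), Insl3 (-0.50), Akr1cl (-0.87), Cyp17a1 (-0.064), Cyp11a1 (-0.68), Fxyd1 (-0.22) and Tcf21 (-0.29), and Bgn was at 0.18. Reads of a pseudogene can be split with its parent gene.

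Immediate early and heat shock genes respond within minutes to stimuli and to cell handling. Of 13 such genes 11 (84.6%, beside 4.69% of all genes) were over 2-fold higher, with a median of 1.75. Fosb, a subunit of AP-1, was at 43.7 and 6.55 FPKM in Pld6 KO and WT, and at 66.0 and 25.3 FPKM in the Dnmt3L KO and heterozygote. Ier2, an early response factor, was at 41.0 and 11.4 FPKM. The cochaperone Dnajb1, the most abundant of the list in Pld6 WT, was the exception at 39.7 and 55.5 FPKM. With the Dnmt3L heterozygote as the control the median was 0.46 and Ier2 was at -0.25. Somatic marker lists were higher too, with the values given above, and their part in these values was not tested.

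Genes of the interferon response and of nucleic acid sensing, many of them weakly expressed, gave no call in FPKM + 1. Of 32 genes 23 were above and 9 below Pld6 WT, with a median of 0.32. Irf7, a driver of interferon transcription, was at 2.40 and 0.708 FPKM and in fragments 3.37-fold higher (2.39 to 4.83). Isg15, an interferon-induced ubiquitin-like protein, had 12 and 45 fragments, 2.82-fold lower (1.46 to 5.85). Bst2, an antiviral membrane protein, was at 33.3 and 25.8 FPKM, and the RNA editing enzyme Adar at 24.3 and 19.5 FPKM. Of 29 checkpoint and apoptosis genes 1 (3.45%, beside 6.46% of all genes) was over 2-fold lower. It was Atr, the kinase that senses unpaired meiotic chromosomes, at 88.6 and 191 FPKM. In the Dnmt3L KO and heterozygote Atr was at 63.6 and 62.8 FPKM. Gadd45g, a stress response gene, was at 30.9 and 15.9 FPKM and Brca1 at 25.7 and 26.4 FPKM, and the list's median was -0.04. Of 10 housekeeping genes 0 passed 2-fold, with a median of 0.21 and a range from Hprt, a purine salvage enzyme, at 102 and 155 FPKM to B2m, the light chain of MHC class I, at 79.0 and 42.5 FPKM. Gapdh was at 349 and 336 FPKM, a difference whose sign turned when FPKM was rescaled by the median ratio, and the cyclophilin gene Ppia at 1071 and 1409 FPKM.

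Genes at or near 0 in 1 of the libraries were counted as those with at most 3 fragments on one side and at least 30 on the other. Of 23980 genes, 35 were by this rule on in Pld6 KO and 661 on in Pld6 WT. The rule does not scale for depth, which favours the Pld6 WT side. Pld6 KO held 30439943 fragments and Pld6 WT 40541149, with 6618 and 4026 genes at 0. Of the 35, 15 had over 3 fragments in the Dnmt3L heterozygote, 12 were over 3 fragments in Dnmt3L KO but not in its heterozygote, and 8 were at or under 3 fragments in both. The retrotransposon-driven genes of the Pld6 list made up 4 of the 35 (Reg2, Gc, Il23r and Tmc2) and those of the Dnmt3l list a further 3 (Pkhd1, 2310043L19Rik and Cdh19). Pkhd1, a cilium protein of kidney tubules, had 382 fragments against 3 and, in the Dnmt3L pair, 320 against 4. The following were chosen after their values were seen. Ly6d, a surface antigen, had 91 fragments in Pld6 KO and none elsewhere, a fold of at least 40.4. Ugt1a10, a glucuronosyltransferase, had 130 against 0, and 2 and 0 in the Dnmt3L KO and heterozygote, a fold of at least 57.8. Cd79b, the partner of Cd79a in the B cell receptor, had 111 against 1. Of the 661 genes on in Pld6 WT, 650 had over 3 fragments in the Dnmt3L heterozygote. Of these, 409 were at or under 3 fragments in Dnmt3L KO. The median level of the 661 in Pld6 WT was 2.80 FPKM. They held 9 of the 26 spermatid and 4 of the 20 pachytene markers.

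The autosomes were alike, with medians between -0.07 for chromosome 12 and 0.07 for chromosome 19 among genes with a mean FPKM of at least 1. The X chromosome (590 genes), which is silenced as meiosis proceeds to pachytene, had a median of 0.08, with 10.8% of genes higher and 10.7% lower against 7.67% and 9.56% on the autosomes. Tsga8, a spermatid gene on the X named after its value was seen, had 774 fragments in Pld6 WT and none in Pld6 KO. The Y chromosome (27 genes) had 0 genes over 2-fold higher and 15 over 2-fold lower, or 55.6%, with a median of -1.65. These 15 were the multicopy genes Ssty1, Ssty2, Sly and 12 predicted genes of the long arm, 14 of which were at 0 fragments in Pld6 KO. The other 12 lay between -0.99 and 0.44. Sly, a spermatid regulator, had 145 fragments in Pld6 WT and 2 in Pld6 KO, 54.4-fold lower (14.8 to 454). Zfy2, a zinc finger gene of the short arm, was at 8.54 and 10.7 FPKM, Uba1y, a ubiquitin-activating enzyme, at 105 and 119 FPKM and the demethylase Kdm5d at 4.58 and 3.11 FPKM. Reads of multicopy Y genes can be split between near-identical copies, so their single values are uncertain.

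**Figure D5:**
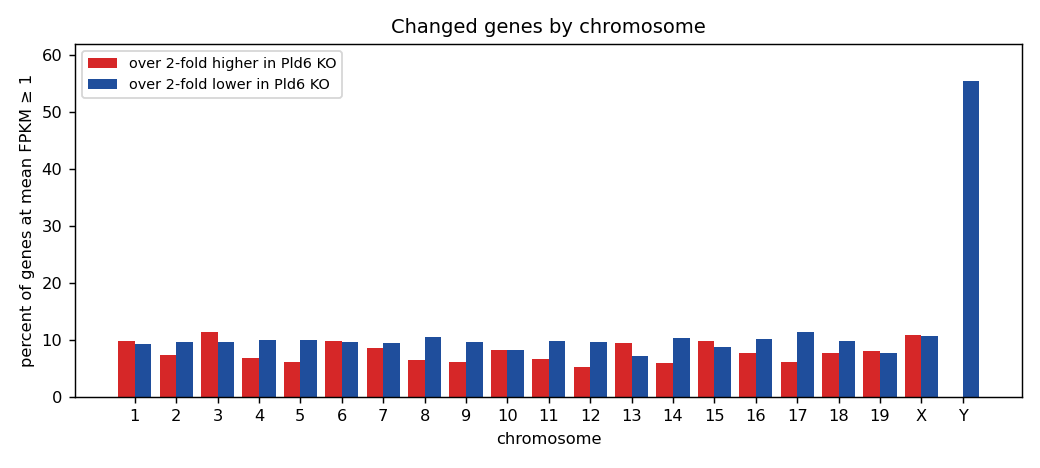
Share of genes with a mean FPKM of at least 1 that were over 2-fold higher (red) or lower (blue) in Pld6 KO, by chromosome. Autosomes range from 5.30% to 11.4% higher and from 7.13% to 11.3% lower, and the Y chromosome has 0 higher and 55.6% lower genes.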

How the data were processed

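PolyA(+) RNA of sorted L/Z spermatocytes was sequenced as 50-bp single-end reads from stranded libraries. The authors aligned reads with TopHat2 and ran Cuffdiff on RefSeq genes, and the versions are not given in the sources used here. Per the labels the build was mm10. For each of 23980 genes the deposited file gives, library by library, an estimated count, mostly whole numbers. Beside it stands the FPKM, which the authors' tool had scaled across the 4 libraries. The fragment totals exceed the read numbers that the study's methods give for such libraries, so a fragment may not equal 1 read and counting intervals may be too narrow. 2 further columns of scaled fragments were not used here, and 13 genes had a failed value in the Pld6 pair and were kept as listed.

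Python 3.11.15, pandas 2.3.3 and scipy 1.17.1 were used. Groups came from the genotype in the labels. A gene was called at over 2-fold in FPKM + 1. No test was run. Positions were matched by symbol or synonym to RefSeq genes of GRCm38.p6 (99.3% of genes), and promoter sequences are those of RefSeq. Of 380 entries in 20 gene lists, 377 were in the table. The members and lists were chosen with earlier results of these data known. Named are Pld6, the 12 genes furthest above and the 12 furthest below Pld6 WT with at least 100 fragments, no failed value and no short RNA symbol, all 13 retrotransposon-driven genes, and of each other list the highest and lowest change, the member highest in Pld6 WT and the member at the median. Every other gene named was chosen after its values were seen, among them Piwil1, Piwil2, Pkhd1, Cdh19, Izumo1, Itga5, Ssty1, Ssty2, the genes next to Reg2 and the lymphocyte genes at 0. Alternatives changed the pseudocount, the filter, the scaling, the control, the threshold and the use of intervals. The interval and call steps were tested on simulated data.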

Additional observations from a re-analysis of the deposited data

Results flagged for a closer look

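2 lists had medians of opposite sign in the Pld6 pair and the Dnmt3L pair, both past 0.1 in size. Whether the pairs differ was not tested, since each side is 1 library. The list of 12 Y chromosome genes had a median of -0.28 in Pld6 KO and 0.26 in Dnmt3L KO. Its summed level was highest in Pld6 WT, at 350 FPKM. It was 282 FPKM in Pld6 KO, and 249 and 211 FPKM in the Dnmt3L KO and heterozygote. The 27 Y genes with a mean FPKM of at least 1, however, had medians of -1.65 and -1.15 in the Pld6 and Dnmt3L pairs. Usp9y, a deubiquitinase (named after its value was seen), was at 7.40 and 15.7 FPKM in Pld6 KO and WT and at 9.10 and 5.68 FPKM in the Dnmt3L KO and heterozygote. The spermatid genes of the list, Ssty1, Ssty2 and Sly, were low in both mutants. The peritubular and vascular median was 1.77 in the Pld6 pair against -0.18. Its summed level was 187 FPKM in Pld6 WT and between 518 and 838 FPKM in the other 3 libraries, so Pld6 WT was the lowest of the 4.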

How the results depend on the processing

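No paired analysis was possible because each genotype is 1 library, and for the same reason none could be left out in turn. With a pseudocount of 0.1 FPKM 2675 genes were higher and 2950 lower, and with a 3-fold threshold 307 and 991. The smaller pseudocount also moved Pld6 to -5.49 and the medians of the retrotransposon-driven genes to 1.83, of spermatids to -3.92 and of chromosome Y to -4.49. Rescaling FPKM by the median ratio moved the X chromosome to 0.0169 and the autosomes to -0.0514, and turned the sign of Gapdh and Hbb-bs, both close to 0. With the Dnmt3L heterozygote as the control 3209 genes were lower, and the medians were 0.27 for the piRNA pathway, 0.62 for chromatin silencing, 0.14 for leptotene and zygotene, -4.84 for spermatids, 0.25 for the Y list, -3.27 for Sertoli, -0.59 for Leydig, 0.000342 for macrophage, 0.64 for peritubular and vascular and -3.08 for erythroid markers, -0.00339 for interferon, 0.46 for immediate early genes, -0.0831 for the X chromosome and 0 for the autosomes. Of the named genes past 2-fold, those that then had the opposite sign were Gm5643 (-0.64), Insl3 (-0.50), Akr1cl (-0.87), Cyp17a1 (-0.064), Cyp11a1 (-0.68), Fxyd1 (-0.22), Tcf21 (-0.29), Rhox8 (-2.39), Cst12 (-3.97), Hsd3b1 (-3.01), Fabp3 (-1.14), Hsd17b3 (-0.69), Lyz2 (-0.51), Acta2 (-0.0444), Ier2 (-0.25) and Atr (0.49). In all, that control changed the sign of 10 of 23 medians and 33 of 107 named genes, and rescaling that of 1 and 2. The cause was not tested. Leaving out short RNA genes, chosen after seeing the data, left 1062 higher and 1434 lower genes.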

Other observations

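Noncoding RNAs were looked at after the other values had been seen. Of 425 long noncoding RNA genes with a mean FPKM of at least 1, 25.4% were over 2-fold lower and 4.94% over 2-fold higher in Pld6 KO, beside 8.39% and 7.56% of 13094 protein-coding genes. Their median was -0.31, beside 0.03 for protein-coding genes. Of 143 transcribed pseudogenes 13.3% were lower and 5.59% higher. Genes of short RNAs were further apart, with 69.4% of 124 miRNA genes lower and 17.7% higher, and 37.7% of 69 snoRNA genes lower and 52.2% higher, and such short genes reach a high FPKM with few fragments.

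The X chromosome held genes at both ends, named after their values were seen. Beside Tsga8, the spermatid scaffold Akap4 had 1407 fragments in Pld6 WT and 4 in Pld6 KO, 264-fold lower (103 to 971). At the other end, Slc38a5, an amino acid transporter, was at 26.3 and 5.03 FPKM in Pld6 KO and WT. Erdr1 was at 207 and 57.9 FPKM and reached 1261 FPKM in Dnmt3L KO, against 85.3 FPKM in its heterozygote.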
